A study of Rattus norvegicus with 4 samples.

Results

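The enzymes that process and crosslink collagen were followed as 10 genes in rat mesenchymal stem cells: the lysyl oxidases Lox, Loxl1, Loxl2, Loxl3 and Loxl4, the lysyl hydroxylases Plod1, Plod2 and Plod3, the procollagen enhancer Pcolce and the procollagen peptidase Adamts2. They were chosen by gene symbol, and all 10 were found among the 34034 genes of the deposited count table. The cells were from femurs, and every group shared the osteogenic induction medium, the harvest at day 1, a treatment period of 24 h and, per the labels, a single batch. There were 4 groups of 1 library each. Vehicle was given to young cells (the young control) and to senescent cells (the senescent control). Senescent cells also received either TSA (trichostatin A), which inhibits histone deacetylases, or TSA together with phenamil, a relative of amiloride that blocks epithelial sodium channels. Phenamil was not given alone in any library. The labels name phenamil and the design text of the series names benzyl ether, and the labels are used here. Doses, strain, age, pooling of animals and how senescence came about could not be taken from the labels.

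Collagen is made as a longer precursor, procollagen, whose lysines are hydroxylated in the endoplasmic reticulum by the PLOD enzymes. Outside the cell, ADAMTS2 removes the N-terminal propeptide and BMP1-type proteases remove the C-terminal one, the latter helped by PCOLCE. Lysyl oxidases then oxidise lysines and hydroxylysines of the fibril to aldehydes, from which covalent crosslinks form. In bone these crosslinks contribute to the strength of the matrix on which mineral is laid down.

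Values are of 2 kinds, each with a 95% exact counting interval in parentheses: levels in CPM (counts scaled to library size as edgeR does) and ratios of scaled counts between a pair of libraries. The intervals hold counting error and nothing else. Because each group was a single library, there was no replicate check and no p-value, and a ratio compares the libraries named, not the conditions. A gene was called higher or lower when its whole interval lay beyond 1.2-fold. Genes counted at least 40 times in the 4 libraries together were compared, 12228 in all, and the 10 enzyme genes were among them. Total counts ran from 9873894 to 11024227 per library. In RNA from bulk cultures, fewer cells of a type and less RNA per cell cannot be told apart. The mesenchymal markers were detected in each library (10 of 10, summed level 46257 to 55594 CPM, lowest with TSA and highest with TSA + phenamil). Most of this sum came from Col1a1 and Col1a2. Col1a1 alone ran from 26684 CPM with TSA to 33576 CPM with TSA + phenamil. Eng was low, at 18 to 23 counts per library. Summed levels reached at most 1.33 CPM over 7 haematopoietic markers, 0.381 CPM over 5 endothelial markers and 0.571 CPM over 4 epithelial markers. Of 6 osteoblast markers, Sp7 and Ibsp were at 0 counts throughout, Bglap had at most 2 counts in a library and Dmp1 at most 1. The sum ran from 33.3 CPM with TSA to 45.2 CPM with TSA + phenamil, nearly all from Alpl and Runx2. Genes of 2 other marker lists were clearly detected. Of 4 chondrocyte markers Acan, Col2a1 and Sox9 had counts and Matn1 was at 0 in all libraries; their sum ran from 469 CPM with TSA to 540.5 CPM in the senescent control. Of 4 osteoclast markers Ctsk, Mmp9 and Acp5 had counts and Calcr was at 0 in all libraries; their sum ran from 57.5 CPM with TSA + phenamil to 65.7 CPM with TSA. The 4 adipocyte markers summed to 8.76 to 12.2 CPM, nearly all from Pparg. The part of these marker genes in the results was not tested.

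The enzyme genes did not move as a block. Lox and Loxl3 were higher in the senescent control than in the young control, and lower with TSA and phenamil than in the senescent control or with TSA alone. Adamts2 was placed the other way round: it was lower in the senescent control and higher with both compounds. Pcolce was lower in the senescent control. Loxl1, Loxl4 and the 3 lysyl hydroxylases were not called in any of the 6 pairs of libraries. Per pair, 5.35% to 12.9% of all compared genes were called, so most genes were not called in a given pair.

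**Figure D1:**
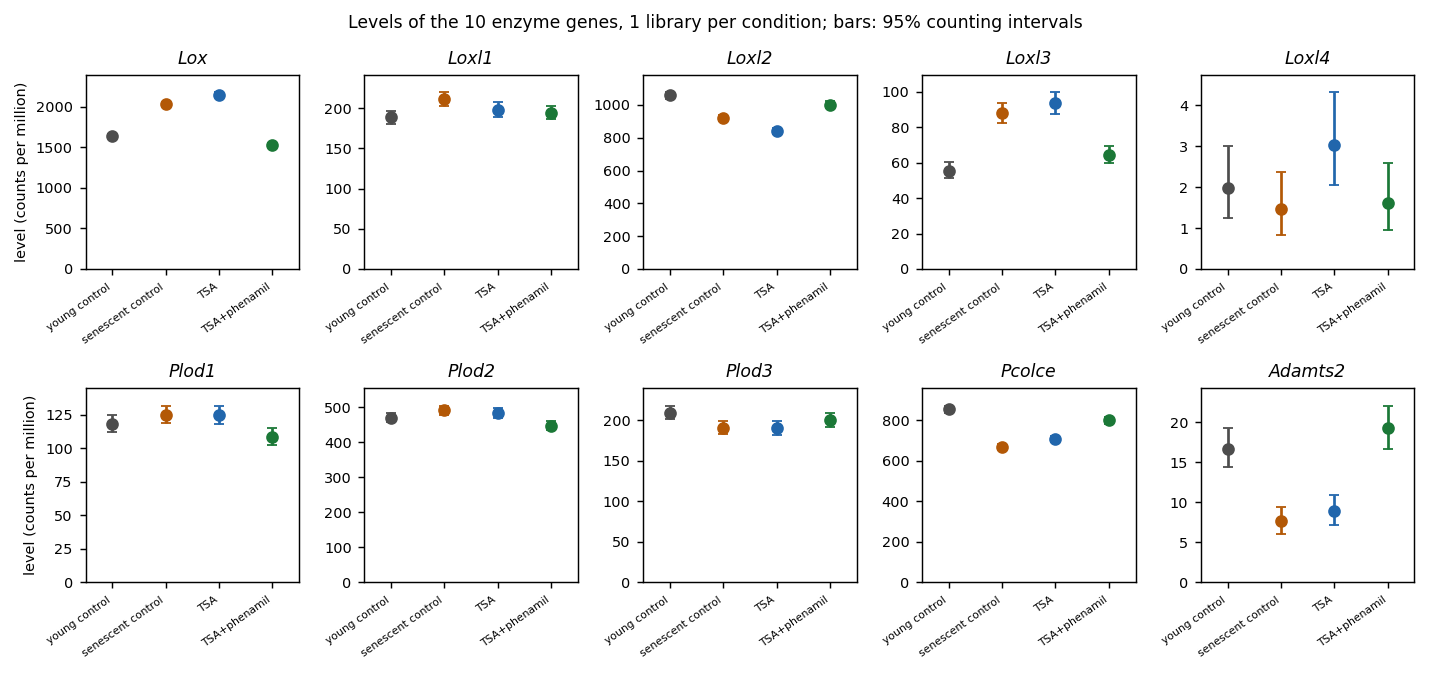
Level of each of the 10 genes in CPM (vertical axes from 0) in the 4 libraries, controls first; points are single libraries and bars are 95% exact Poisson intervals. Lox and Loxl3 sit highest in the senescent control and TSA libraries, where Adamts2 sits lowest (7.63 and 8.87 CPM), and the 3 Plod panels are nearly level.

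The promoters of the genes give their sequence context. Of the 10 genes, 8 were in a RefSeq promoter table of the assembly GRCr8, and Lox and Loxl2 were not matched. Shown 5′ to 3′ are the 250 bases before the annotated start of Adamts2 (chr10:35421780-35422029), Pcolce (chr12:24720722-24720971), Loxl3 (chr4:117098108-117098357) and Plod2 (chr8:101964068-101964317), all on the plus strand. Adamts2 and Pcolce are shown as the genes called lower in the senescent control, Loxl3 as a gene called higher there, and Plod2 as a textbook target of hypoxia-inducible factors that was not called. Capitals mark the GC box GGGCGG in the first 3 and the hypoxia-inducible factor core ACGTG in Plod2, each on either strand.
Adamts2: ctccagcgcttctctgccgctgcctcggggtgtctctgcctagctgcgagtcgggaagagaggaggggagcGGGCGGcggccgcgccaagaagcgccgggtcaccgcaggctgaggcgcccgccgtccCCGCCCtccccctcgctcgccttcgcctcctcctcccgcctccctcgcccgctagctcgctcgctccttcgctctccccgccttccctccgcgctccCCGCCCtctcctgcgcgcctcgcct
Pcolce: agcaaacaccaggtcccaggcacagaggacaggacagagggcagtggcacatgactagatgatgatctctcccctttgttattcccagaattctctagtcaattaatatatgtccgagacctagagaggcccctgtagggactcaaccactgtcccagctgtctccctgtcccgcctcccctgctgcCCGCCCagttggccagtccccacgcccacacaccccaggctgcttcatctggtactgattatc
Loxl3: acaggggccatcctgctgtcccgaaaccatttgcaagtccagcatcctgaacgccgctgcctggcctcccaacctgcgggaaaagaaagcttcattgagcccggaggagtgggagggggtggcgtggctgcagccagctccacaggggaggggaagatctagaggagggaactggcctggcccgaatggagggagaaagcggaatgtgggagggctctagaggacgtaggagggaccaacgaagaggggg
Plod2: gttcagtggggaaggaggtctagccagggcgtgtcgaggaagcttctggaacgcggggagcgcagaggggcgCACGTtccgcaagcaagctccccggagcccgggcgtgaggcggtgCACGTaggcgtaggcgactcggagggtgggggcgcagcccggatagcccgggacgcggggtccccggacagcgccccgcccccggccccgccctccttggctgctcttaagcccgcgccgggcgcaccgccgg
The Adamts2 stretch holds 3 GC boxes, that of Pcolce 1 and that of Loxl3 0, while Plod2 holds 2 hypoxia-inducible factor cores. None of the matches in capitals overlaps another. The genes not called in any pair held 4 GC boxes in Plod1, 3 in Loxl4, 2 in Plod2, 1 in Plod3 and 0 in Loxl1. Those of Plod2 are left in lower case above. A GC box was found in 6 of the 8 enzyme promoters, against 56.1% of the 11315 promoters of compared genes. The ACGTG core was found in 1 of the 8, against 21.5%. Also searched on both strands were the AP-1 site TGANTCA (0 of 8, against 4.31% of all), the box CCAAT (1 of 8, against 35.2%) and the Smad box GTCTG (4 of 8, against 41.7%). A match is a match of letters and nothing more. GC content was 75.6% for Adamts2, 56.0% for Pcolce, 62.4% for Loxl3 and 74.8% for Plod2. The median over the 11315 promoters of compared genes was 59.6%. The counts were made on another build, so no count is tied to these coordinates.

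Adamts2 encodes the metalloprotease that cuts the N-terminal propeptide from fibrillar procollagens, and its loss causes a disorder of fragile skin. It was counted 185 times in the young control, 84 times in the senescent control, 88 times with TSA and 202 times with TSA and phenamil. These are 16.7 CPM (14.4 to 19.3), 7.63 CPM (6.08 to 9.44), 8.87 CPM (7.12 to 10.9) and 19.2 CPM (16.7 to 22.1), so the intervals of the 2 high libraries lay apart from those of the 2 low ones. Senescent control over young control was 0.457 (0.349 to 0.595) and TSA + phenamil over senescent control was 2.52 (1.95 to 3.29); these ratios share the senescent control library. TSA over senescent control was 1.16 (0.853 to 1.59) and TSA + phenamil over young control was 1.15 (0.940 to 1.42), both with intervals that include no change. The highest library stood 2.52 times above the lowest. Over the 2395 genes whose total count lay within 1.5-fold of the 559 counts of Adamts2, the median of that range was 1.35. An annotated long non-coding RNA gene overlaps Adamts2, and whether counting used strand is not known from the labels, so reads of the pair may not be separable.

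Pcolce encodes a secreted glycoprotein that binds the C-terminal propeptide and speeds its removal by BMP1. Its levels were 855 CPM (838 to 872) in the young control, 666 CPM (651 to 682) in the senescent control, 707 CPM (690.5 to 724) with TSA and 799 CPM (782 to 817) with TSA and phenamil. All 3 senescent libraries were below the young one, and each step in the order of levels exceeded counting error. The range over libraries was 1.28-fold, against a median of 1.18-fold over 157 genes of like total count, 75.8% of which had a smaller range. Senescent control over young control was 0.780 (0.756 to 0.804), which was called. TSA + phenamil over senescent control was 1.1997 (1.16 to 1.24) and was not called, since the lower bound fell short of 1.2-fold. Summed over Pcolce and Adamts2, the levels were 871, 674, 716 and 819 CPM in the same order of libraries.

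Lox encodes the founding lysyl oxidase, a copper enzyme that is secreted as a proenzyme and crosslinks collagen and elastin. Its levels were 1638 CPM (1614 to 1662) in the young control, 2033 CPM (2007 to 2060.3) in the senescent control, 2152 CPM (2124 to 2181) with TSA and 1530.3 CPM (1507 to 1554) with TSA and phenamil. The senescent control and TSA libraries were high and the other 2 low, and no intervals overlapped. Senescent control over young control was 1.24 (1.22 to 1.27). With total counts in place of trimmed means for scaling this ratio was 1.22, and Lox was no longer called. TSA + phenamil over senescent control was 0.753 (0.737 to 0.768) and over TSA 0.711 (0.697 to 0.726). Against the young control, TSA stood at 1.31 (1.29 to 1.34), which was called, and TSA + phenamil at 0.934 (0.914 to 0.954), which was not. The range over libraries was 1.41-fold, against a median of 1.22-fold over 63 genes of like total count. A ribosomal protein pseudogene overlaps Lox in the annotation.

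Loxl3 encodes a lysyl oxidase-like enzyme with scavenger receptor domains, which in mice is needed for the palate and spine. It had 616 counts in the young control, 970 counts in the senescent control, 928 with TSA and 678 with TSA and phenamil, or 55.5 CPM (51.2 to 60.1), 88.1 CPM (82.6 to 93.8), 93.6 CPM (87.6 to 99.8) and 64.6 CPM (59.8 to 69.6). The senescent control and TSA libraries overlapped each other and lay above the other 2. Senescent control over young control was 1.59 (1.43 to 1.76). TSA + phenamil stood at 0.733 (0.664 to 0.810) of the senescent control, at 0.690 (0.624 to 0.763) of TSA and at 1.16 (1.04 to 1.30) of the young control. Loxl3 overlaps Htra2, a mitochondrial protease gene, in the annotation. Htra2 had 582, 623, 598 and 535 counts in the same libraries, and reads of the pair may not be separable.

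Loxl2 encodes a lysyl oxidase-like enzyme known for crosslinking collagen IV of basement membranes. Its levels were 1059 CPM (1039.6 to 1078) in the young control, 919 CPM (901 to 937) in the senescent control, 842 CPM (824 to 860.2) with TSA and 1002 CPM (983 to 1021) with TSA and phenamil. It was thus high where Lox was low, and each neighbouring pair in its order differed beyond counting error. The steps were small, and Loxl2 was called in 1 of 6 pairs, TSA over young control at 0.795 (0.773 to 0.818). TSA + phenamil over TSA was 1.19 (1.16 to 1.23), short of the rule.

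Loxl1, whose product crosslinks elastin, ran from 188 CPM (180.4 to 197) in the young control to 211 CPM (203 to 219.8) in the senescent control. TSA at 198 CPM and TSA + phenamil at 194 CPM lay between and did not differ from each other beyond counting error. Loxl4 had 22, 16, 30 and 17 counts, too few for any neighbours in its order to be told apart. Its TSA library stood at 2.08 (1.099 to 4.09) times the senescent control.

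Shares within the family need no library scaling, since both parts come from the same library. Of all lysyl oxidase counts, Lox made up 55.7% (55.1 to 56.2) in the young control, 62.5% (62.0 to 63.0) in the senescent control, 65.4% (64.9 to 66.0) with TSA and 54.8% (54.2 to 55.4) with TSA and phenamil. Loxl2 made up 36.0%, 28.3%, 25.6% and 35.9% in the same order. The senescent control and TSA libraries held more Lox and less Loxl2 than the other pair. Both genes together made up most of the family counts, so a higher share of Lox leaves a lower share for Loxl2. Reads came from 3' ends of transcripts, so these are shares of tags, not divided by length. Summed over the 5 genes, levels were 2943, 3253, 3289 and 2793 CPM.

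**Figure D2:**
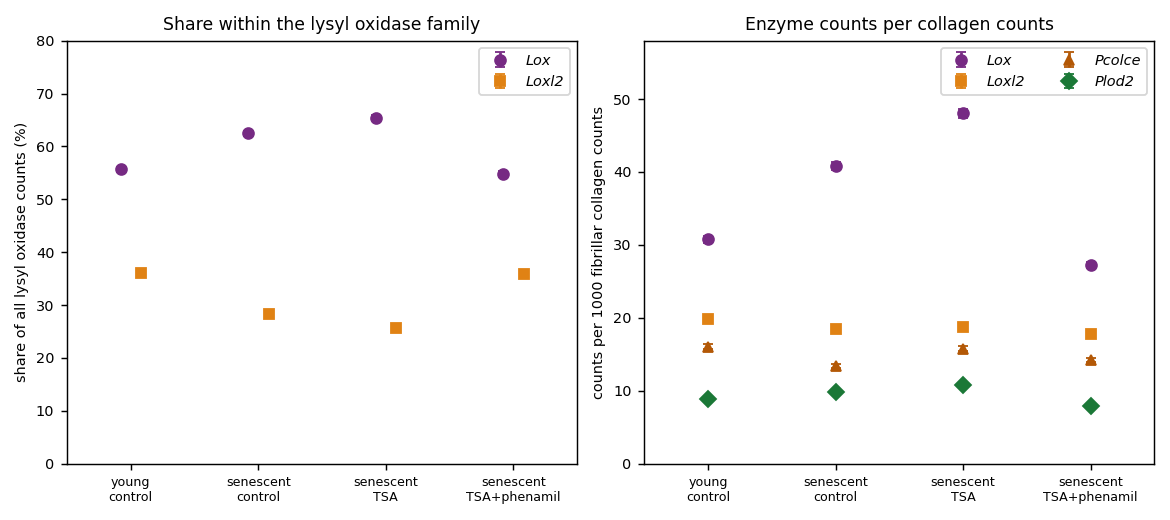
Left, percent of the counts of all 5 lysyl oxidase genes that fell on Lox and Loxl2 in each library, with 95% exact binomial intervals; right, counts of enzyme genes per 1000 counts of 5 fibrillar collagen genes, with 95% exact intervals. Lox runs from 27.2 to 48.0 per 1000 collagen counts, while Loxl2 stays between 17.8 and 19.9.

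Fibrillar collagens are substrates of several of these enzymes, while Loxl1 and Loxl2 are named above for elastin and collagen IV. Counts of Col1a1, Col1a2, Col3a1, Col5a1 and Col5a2 together made up 53215 CPM in the young control, 49789 CPM in the senescent control, 44808 CPM with TSA and 56171 CPM with TSA and phenamil, the reverse of the order of Lox. Per 1000 of these counts there were 30.8 (30.3 to 31.2), 40.8 (40.3 to 41.4), 48.0 (47.4 to 48.7) and 27.2 (26.8 to 27.7) counts of Lox. Within a pair of libraries, this measure shifts the CPM ratio of every gene by the same factor. On this measure, which also needs no scaling of libraries, TSA stood at 1.56 (1.53 to 1.59) times the young control and TSA + phenamil at 0.567 (0.556 to 0.579) times TSA. Loxl2 was at 19.9, 18.5, 18.8 and 17.8 per 1000. Pcolce was at 16.1, 13.4, 15.8 and 14.2 per 1000, so that TSA over young control was 0.982 (0.952 to 1.01). For TSA + phenamil over TSA the direction turned on this measure: Pcolce stood at 1.13 (1.095 to 1.17) in CPM and at 0.902 (0.874 to 0.931) per collagen count, and Loxl2 at 1.19 (1.16 to 1.23) and 0.949 (0.922 to 0.977). Loxl2 turned likewise in TSA + phenamil over senescent control, from 1.09 (1.06 to 1.12) to 0.966 (0.940 to 0.993). Adamts2 and Loxl3 kept their directions in TSA + phenamil over TSA, at 1.73 (1.34 to 2.25) and 0.551 (0.498 to 0.609) per collagen count. Col1a1 and Col1a2 supplied most of the collagen counts.

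The lysyl hydroxylases varied little in CPM, and more when set against collagen counts, a step that shifts all genes in a pair of libraries alike. Plod2, which hydroxylates lysines of the telopeptides where crosslinks start, stood at 469 CPM (457 to 482) in the young control, 491 CPM (478 to 504) in the senescent control, 482 CPM (469 to 496) with TSA and 447 CPM (435 to 460.2) with TSA and phenamil. Its highest library was 1.098 times its lowest, where 262 genes of like total count had a median range of 1.17-fold. Plod1, whose product acts on the triple helix and whose loss causes a connective tissue disorder, stood at 118, 125, 124 and 108 CPM. Only the last of these lay beyond counting error from its neighbour in the order. Plod3, which also adds sugars to hydroxylysine, stood at 209.5, 191, 190.1 and 201 CPM, and no neighbours in its order differed beyond counting error. Plod3 overlaps the protein-coding gene Znhit1 in the annotation. For the 3 genes together the levels were 797, 807, 797 and 756 CPM, and TSA + phenamil over senescent control was 0.937 (0.909 to 0.966). Per 1000 fibrillar collagen counts, Plod1 was at 2.22, 2.51, 2.78 and 1.93, Plod2 at 8.82, 9.87, 10.8 and 7.96, and Plod3 at 3.94, 3.83, 4.24 and 3.57. All 3 were highest with TSA, where the summed collagen level in CPM was lowest, and lowest with TSA + phenamil, where it was highest. On this measure TSA + phenamil over TSA was 0.694 (0.639 to 0.753) for Plod1, 0.740 (0.710 to 0.770) for Plod2 and 0.842 (0.791 to 0.897) for Plod3. TSA over young control was 1.25 (1.16 to 1.36), 1.22 (1.17 to 1.27) and 1.08 (1.01 to 1.15) in the same order of genes.

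The senescent and young controls, both given vehicle, were set against each other first. Of the 10 enzyme genes, Lox and Loxl3 were higher and Pcolce and Adamts2 lower, that is 4 of 10. Of all compared genes 6.94% were called (3.56% higher, 3.39% lower), and of the 7395 genes with at least 500 counts, among them 9 of the 10, 4.81%. The 10 genes were proposed with results of these libraries known. Intervals that merely excluded no change were found for 8 of 10, against 34.9% of all genes. Such intervals narrow as counts rise, and 9 of the 10 had at least 500 counts. For this wider rule no share at like counts was computed, here or in the pairs below. The part of abundance in these shares was not tested. The median log2 ratio of the 10 was -0.04, against 0.0047 over all genes. Among other genes of collagen biosynthesis (procollagen proteases, prolyl hydroxylation and folding, export), 2 of 29 compared were called, a share near the background. These were P4ha3, a catalytic subunit of prolyl 4-hydroxylase, at 1.39 (1.25 to 1.55), and Klhl12, an adaptor of the ubiquitin ligase that enlarges export vesicles for procollagen, at 0.516 (0.392 to 0.675). The C-terminal propeptidase gene Bmp1 stood at 0.902 (0.782 to 1.04). The prolyl hydroxylase genes P4ha1 and P4hb stood at 1.09 (1.07 to 1.12) and 0.983 (0.958 to 1.01), and the collagen chaperone gene Serpinh1 at 0.893 (0.875 to 0.912).

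Of 9 substrate genes 0 were higher and 4 lower in the senescent control, with a median log2 ratio of -0.19. Those lower were Col5a3 at 0.591 (0.561 to 0.623), Col3a1 at 0.801 (0.791 to 0.811) and the basement membrane collagens Col4a1 at 0.781 (0.733 to 0.832) and Col4a2 at 0.738 (0.679 to 0.802). Col1a1 stood at 0.980 (0.976 to 0.985) and the elastin gene Eln at 0.991 (0.829 to 1.19). Of 13 genes of fibril assembly and crosslink regulation 0 were higher and 3 lower (median -0.12): the fibrillin gene Fbn1 at 0.706 (0.684 to 0.729), Fbln5 at 0.757 (0.693 to 0.827) and the biglycan gene Bgn at 0.814 (0.798 to 0.831). Hypoxia response genes, a programme to which Lox and Plod2 belong in textbooks, had 3 of 12 higher and 0 lower (median 0.29). These were Ankrd37 at 2.38 (1.57 to 3.69), the lactate dehydrogenase gene Ldha at 1.46 (1.33 to 1.60) and the phosphoglycerate kinase gene Pgk1 at 1.30 (1.24 to 1.36). Of 8 TGF-beta target genes 1 was higher, Tgfbi at 2.37 (1.24 to 4.80) from 33 against 14 counts, and the median was -0.01.

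**Figure D3:**
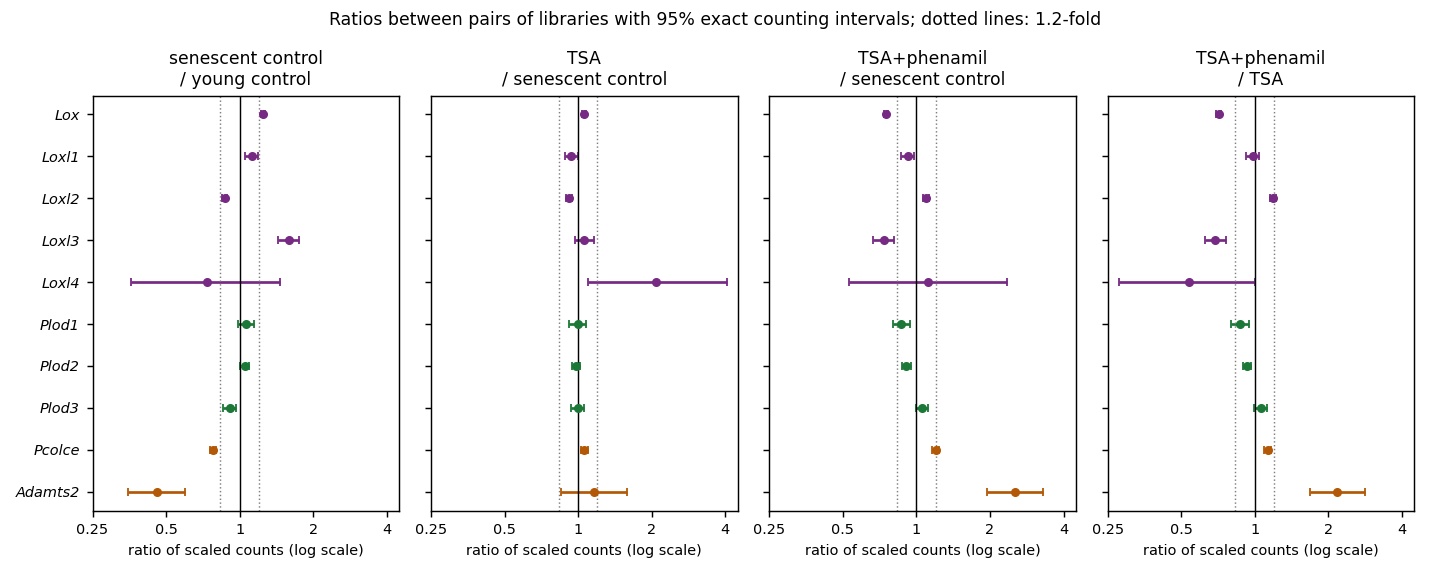
Ratios of scaled counts (horizontal log axes) for the 10 genes in 4 pairs of libraries, with 95% exact counting intervals; colours mark lysyl oxidases, lysyl hydroxylases and procollagen processing genes, and dotted lines mark 1.2-fold either way. Adamts2 lies at 0.457 in senescent over young control and at 2.52 and 2.17 in the pairs with TSA + phenamil, and Lox and Loxl3 lie on the opposite sides. In TSA over senescent control 0 of the 10 genes are called, against 5.52% of all compared genes.

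TSA alone in senescent cells was compared with the senescent control. Of the 10 enzyme genes 0 were called, where the background was 5.52% of all genes (2.72% higher, 2.81% lower) and 3.91% of those with at least 500 counts. Intervals that merely exclude no change were found for 5 of 10 (3 above, 2 below), against 30.5% of all genes. Loxl2 stood at 0.916 (0.890 to 0.943), Loxl1 at 0.939 (0.884 to 0.998), Pcolce at 1.06 (1.03 to 1.097) and Lox at 1.06 (1.04 to 1.08). For Plod1, Plod2 and Plod3 the intervals ran from 0.921 to 1.08, 0.944 to 1.02 and 0.937 to 1.06. The median log2 ratio of the 10 was 0.04, against -0.0029 over all genes.

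In the same pair 0 of 29 biosynthesis partner genes were called, with Bmp1 at 0.729 (0.619 to 0.859) and Serpinh1 at 0.877 (0.857 to 0.897). Of substrate genes 1 of 9 was lower, Col5a3 at 0.701 (0.655 to 0.749), with a list median of -0.14. Of regulator genes 2 of 13 were lower, the periostin gene Postn, whose product aids the activation of lysyl oxidase, at 0.702 (0.648 to 0.761) and Fbn1 at 0.772 (0.742 to 0.802), with a median of -0.04. Hypoxia response genes had 1 of 12 lower, the angiogenic factor gene Vegfa at 0.693 (0.602 to 0.797), and a median of 0.09. TGF-beta targets had 1 of 8 lower, the smooth muscle actin gene Acta2 at 0.681 (0.671 to 0.691), and a median of -0.12.

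Both compounds together were then set against the senescent control. Adamts2 was higher and Lox and Loxl3 were lower, so 3 of 10 were called, against 5.35% of all genes (2.85% higher, 2.49% lower) and 3.77% of those with at least 500 counts. Intervals that merely excluded no change were found for 8 of 10, against 31.6% of all genes. The median log2 ratio of the 10 was -0.02, against -0.00064 over all genes. Plod1 stood at 0.866 (0.800 to 0.937), Plod2 at 0.910 (0.875 to 0.947), Plod3 at 1.05 (0.991 to 1.12) and Loxl2 at 1.09 (1.06 to 1.12). Of biosynthesis partners 2 of 29 were called, again near the background: Klhl12 at 1.65 (1.24 to 2.19) and P4ha1 at 0.813 (0.795 to 0.832). Of substrates 3 of 9 were higher and 0 lower (median 0.17), with Col3a1 at 1.35 (1.33 to 1.37), Col5a3 at 1.54 (1.46 to 1.63) and Col4a2 at 1.57 (1.44 to 1.70). Of regulators 1 of 13 was higher, the collagen-binding gene Sparc at 1.29 (1.28 to 1.30), and 1 lower, the thrombospondin gene Thbs1 at 0.812 (0.800 to 0.823), with a median of 0.23. Hypoxia response genes had 2 of 12 lower, Ankrd37 at 0.471 (0.306 to 0.710) and Pdk1 at 0.577 (0.450 to 0.735), with a median of -0.23. Of 8 TGF-beta targets 0 were called, and their median was -0.11.

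TSA + phenamil and TSA alone are the pair whose labels differ by phenamil. Adamts2 was higher at 2.17 (1.68 to 2.82), and Lox and Loxl3 were lower at the values given above, so 3 of 10 were called, against 7.35% of all genes (3.96% higher, 3.39% lower) and 6.56% of those with at least 500 counts. Loxl4 stood at 0.535 (0.277 to 1.002) from 17 against 30 counts, and Pcolce at 1.13 (1.095 to 1.17). Intervals that merely excluded no change were found for 7 of 10, against 33.7% of all genes. The median log2 ratio of the 10 was -0.07, against 0.0012 over all genes. Over all genes 484 were higher and 415 lower, and with total counts as scaling 393 were higher and 506 lower, while the 10 genes gave 1 higher and 2 lower either way. This pair shares a library with each of the previous 2 comparisons.

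Of biosynthesis partners 3 of 29 were called in that pair: Bmp1 at 1.64 (1.40 to 1.93), Serpinh1 at 1.26 (1.23 to 1.28) and Tmem38b, an endoplasmic reticulum cation channel gene, at 0.597 (0.438 to 0.808). Bmp1 had 420, 376, 247 and 430 counts, so the TSA library was the low one. Of substrates 5 of 9 were higher and 0 lower (median 0.33), among them Col5a3 at 2.20 (2.07 to 2.34), Col3a1 at 1.60 (1.58 to 1.62) and Col1a1 at 1.26 (1.25 to 1.26). Of regulators 4 of 13 were higher and 1 lower (median 0.23). Postn stood at 1.79 (1.66 to 1.94), while the fibromodulin gene Fmod, whose product binds collagen and lysyl oxidase, stood at 0.737 (0.671 to 0.809). Hypoxia response genes had 3 of 12 lower and 0 higher (median -0.31), with Ldha at 0.703 (0.645 to 0.767), the carbonic anhydrase gene Car9 at 0.684 (0.614 to 0.762) and Pgk1 at 0.771 (0.738 to 0.805). TGF-beta targets had 1 of 8 higher, Acta2 at 1.65 (1.63 to 1.67), and 1 lower, Tgfbi at 0.367 (0.183 to 0.698) from 14 against 36 counts, with a median of 0.01.

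**Figure D4:**
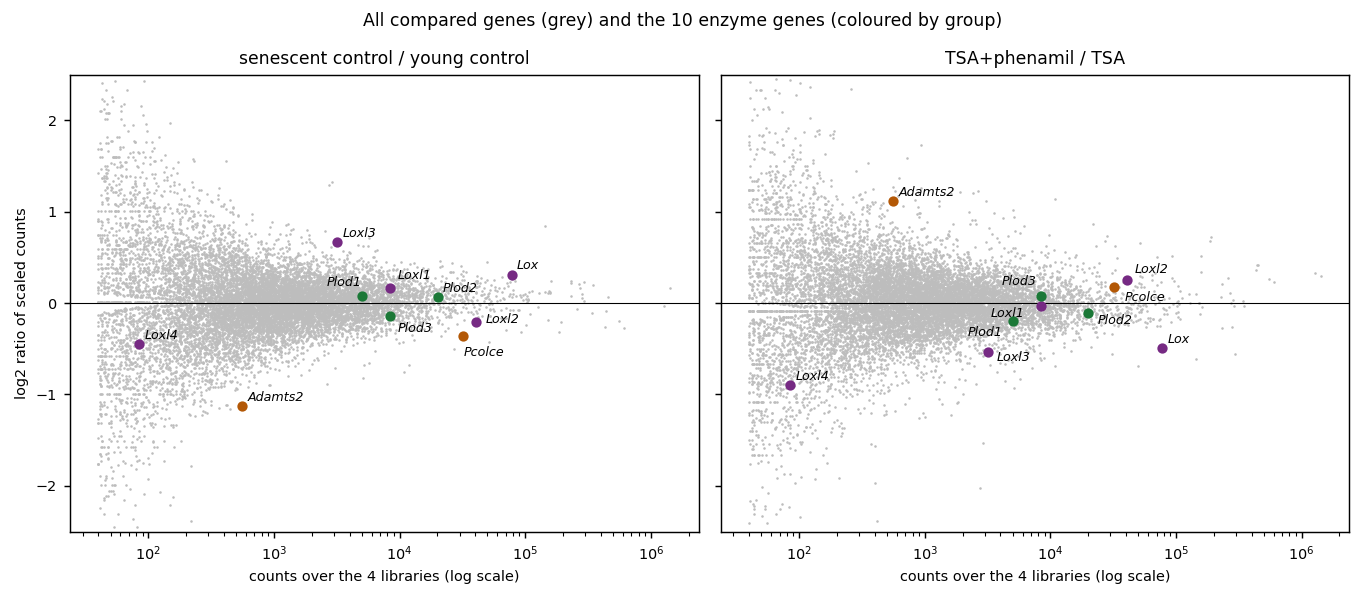
Log2 ratio of scaled counts (vertical) against counts over the 4 libraries (horizontal, log axis) for the 12228 compared genes in grey and the 10 enzyme genes in colour (lysyl oxidases, lysyl hydroxylases, procollagen processing), in senescent control over young control and in TSA + phenamil over TSA. In each panel 29 genes are not drawn because they lie beyond the axis or had 0 counts in a library; Adamts2, Loxl3 and Lox lie toward the edge of the cloud at their abundance, and the Plod genes lie within it.

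The remaining pairs set treated senescent cells against young cells. With TSA, Lox and Loxl3 were higher and Loxl2 and Adamts2 lower than in the young control, 4 of 10, against 12.9% of all genes (6.46% higher, 6.43% lower) and 12.9% of those with at least 500 counts. Loxl3 stood at 1.68 (1.52 to 1.87) and Adamts2 at 0.532 (0.408 to 0.689). Pcolce at 0.827 (0.802 to 0.853) was short of the rule. Intervals that merely excluded no change were found for 6 of 10, against 41.2% of all genes. The median log2 ratio of the 10 was 0.06, against 0.0029 over all genes. Partner genes were called in 5 of 29 cases: Tmem38b at 1.80 (1.32 to 2.45) and the vesicle export gene Sar1b at 1.40 (1.25 to 1.57) were higher. Serpinh1 at 0.783 (0.766 to 0.800), Bmp1 at 0.658 (0.560 to 0.771) and Adamts14, a relative of Adamts2, at 0.386 (0.168 to 0.814) from 10 against 29 counts were lower. Substrates had 5 of 9 lower (median -0.32), among them Col5a3 at 0.414 (0.389 to 0.440) and Col3a1 at 0.677 (0.668 to 0.687). Regulators had 2 of 13 higher and 3 lower (median -0.13), with Fbn1 at 0.545 (0.525 to 0.565). Hypoxia response genes had 4 of 12 higher and 1 lower (median 0.27), with Ldha at 1.76 (1.60 to 1.92) and Pgk1 at 1.45 (1.39 to 1.52). TGF-beta targets had 1 of 8 higher, Tgfbi at 2.88 (1.51 to 5.77), and 2 lower, with Acta2 at 0.590 (0.582 to 0.598) and a median of -0.12.

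With both compounds 0 of the 10 enzyme genes were called against the young control, where 5.73% of all genes (3.07% higher, 2.67% lower) and 4.08% of those with at least 500 counts were. Intervals that merely exclude no change were found for 6 of 10, against 31.8% of all genes: Loxl3 above, and Lox, Loxl2, Pcolce, Plod1 and Plod2 below, the last 5 between 0.917 for Plod1 and 0.953 for Plod2. The median log2 ratio of the 10 was -0.07, against 0.0011 over all genes. Over all genes 375 were higher and 326 lower in this pair, and with total counts as scaling 277 were higher and 460 lower; 0 of the 10 genes were called either way. P4ha3 at 1.57 (1.41 to 1.75) was the single partner gene called of 29. Of 9 substrates, 13 regulators and 12 hypoxia response genes 0 were called, with medians of 0.04, 0.05 and 0.14. Of 8 TGF-beta targets 1 was lower, the inhibitory Smad gene Smad7 at 0.624 (0.492 to 0.788), with a median of -0.04. Over all 6 pairs P4hb ran from 0.983 to 1.05 and Eln from 0.991 to 1.07 in ratio, with 0 calls for either gene. Falling short of the rule does not show that the libraries are alike.

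Genes of like pattern were sought by the root mean square distance of centred log2 CPM over the 4 libraries, among 8046 genes with at least 400 counts. For Lox the nearest were Gng3, Arsi and Blvrb, at 0.02, 0.024 and 0.025 log2 units, where the median gene was at 0.23. For Adamts2 they were Dctpp1 at 0.073, Ssc5d at 0.19 and Spon1 at 0.19, with the median gene at 0.58. In the young and senescent controls and with TSA and TSA + phenamil, Dctpp1 was at 14.0, 6.26, 7.56 and 14.4 CPM. Spon1, which encodes a secreted matrix protein, was at 55.1, 33.0, 27.0 and 62.7 CPM in the same order. Spon1 was lowest with TSA, while Adamts2 was lowest in the senescent control. For Pcolce the nearest were Prr12, Pum3 and Clasp1, at 0.007, 0.0077 and 0.01, with the median gene at 0.18. For Plod2 they were Mrpl54, Trim33 and Ids, at 0.0066, 0.0072 and 0.0098, with the median gene at 0.13. With 4 libraries close matches are easily found, the more so for a nearly flat profile.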

How the data were processed

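Expression was measured in 4 libraries, 1 per group, with a 3' tag kit (QuantSeq FWD) and single-end reads of 100 bp, per the labels' protocols. The authors deposited raw counts per gene and, for each library, log2 values of normalized data, per the file headers. Checked against the counts, a log2 value equalled the log2 of 1 plus the count over a factor for its library, within 0.00053; the log2 values served as an alternative. The submitters' processing notes name the build mRatBN7.2, the aligner STAR 2.7.10b and the counter HTSeq 2.0.2, with no role or order stated. Of annotation, strand setting and duplicates the labels say nothing. The labels name no molecular identifiers, and reads without them are not independent molecules, so intervals and floors cover counting error only.

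Scaling used trimmed means of M-values in edgeR 4.0.16 (R 4.3.3). Its quasi-likelihood test needs replicates and was not run. Genes counted at least 40 times over all libraries were compared. Ratios have exact conditional binomial (Clopper-Pearson) intervals at 95% and levels exact Poisson intervals, from scipy 1.17.1 in Python 3.11.15, without a pseudocount; the interval code was tested on simulated data. The 10 members, the 7 gene lists and the rules were chosen with earlier results of these data known. Named genes were the 10 members, up to 3 called list genes per comparison and direction, ranked by how far the nearer interval bound lay from no change, Bmp1, P4ha1, P4hb, Serpinh1, Col1a1, Col3a1 and Eln, and the 3 genes most like Lox, Adamts2, Pcolce and Plod2. Further called list genes were named after their values were seen. The fixed genes are printed in the comparisons of senescent with young control and elsewhere where called or close to the members' roles. The background of genes with at least 500 counts, the shares and the values per collagen count were also chosen after the data were seen. Gene overlaps and promoters came from RefSeq on GRCr8, another build than that of the counts. Of the listed symbols, Pcolce2 and Tnxb were not matched. Alternatives were size factors from DESeq2 1.42.0, total counts, upper quartile factors, other filters on low counts, other fold rules, and the deposited log2 values.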

Additional observations from a re-analysis of the deposited data

How the results depend on the processing

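Comparisons are listed in the order senescent over young control, TSA over senescent control, TSA + phenamil over senescent control, TSA + phenamil over TSA, TSA over young control and TSA + phenamil over young control. All 60 ratios of the enzyme genes moved by less than their counting interval with DESeq2 size factors, upper quartile factors and the deposited log2 values. The deposited log2 values were these same counts over factors at 0.9986 to 1.001 of the trimmed-mean library sizes, with 1 added. Their closeness to the main values was therefore fixed in advance and is no separate check. With total counts 4 ratios moved further: Lox in TSA + phenamil over TSA at 0.693, and in TSA + phenamil over young control Lox at 0.8996, Loxl2 at 0.911 and Pcolce at 0.901. No called ratio changed sign under these settings, and the cause of the moves was not tested. Counts of called genes depended on the fold rule. With any interval that excludes no change, enzyme genes called were 8, 5, 8, 7, 6 and 6, partner genes 13, 16, 18, 15, 22 and 12 and all genes 4266, 3725, 3869, 4123, 5041 and 3893. With intervals beyond 1.5-fold, enzyme genes called were 1, 0, 1, 1, 1 and 0, partner genes 0, 0, 0, 0, 0 and 0 and all genes 165, 131, 133, 223, 387 and 128. The main rule of 1.2-fold gave 849, 675, 654, 899, 1576 and 701 for all genes. The deposited log2 values carry no counting interval, so the ratio alone was held against 1.2-fold; this gave 5, 1, 3, 4, 6 and 0 enzyme genes, 5, 4, 4, 8, 9 and 3 partner genes and 4241, 3927, 3958, 4365, 5350 and 3937 of all genes. A filter of 200 counts, which leaves fewer genes, gave 548, 414, 413, 652, 1199 and 443 of all genes. Depth limits Loxl4 above all. No paired analysis was possible because each group holds 1 library and no replicate is shared between groups; leaving out a replicate was not possible for the same reason.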
